A study of Mus musculus with 42 samples.

Results

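Whole epithelium RNA of mice that smelled HFD_lard was compared with that of mice that smelled NCD, gene by gene. The libraries are the 5 HFD_lard and 6 NCD inputs among the 42 libraries of the series, and they were taken by their labelled odour and library type. Of 44674 genes in the table, 19532 passed the filter on low counts and were tested.

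Every library came from the main olfactory epithelia of adult male C57BL/6NCrl mice aged 8 to 12 weeks, which were lean and carried no genetic change. Mice smelled a food for 1 h, 4 epithelia were pooled per sample, and part of the RNA was kept as the input before ribosomes with phosphorylated S6 were pulled down from the rest. HFD_lard is a pork lard high-fat diet, NCD is normal chow, and 5 inputs with the odour of BFD, a chow of the same nutrients flavoured with bacon, and 5 inputs without odour served as further reference. The input holds the RNA of all cells of the pooled tissue, so fewer cells of a type and less RNA per cell cannot be told apart.

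The olfactory epithelium is a layer of sensory neurons, each using a single odorant receptor, with supporting cells, basal stem cells and the ducts of Bowman's glands between them. These glands, and larger glands of the nasal wall, release the mucus in which odorants dissolve, and with it lipocalins such as the odorant binding proteins, which carry small hydrophobic molecules. Plasma cells beneath glandular epithelia produce antibodies, chiefly of the IgA class, and the epithelium carries IgA into the secretion with the receptor encoded by Pigr.

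The libraries held 24839555 to 36245567 counts in the NCD group and 26707827 to 33210801 in the HFD_lard group. Ribosomal RNA took 13.6 to 19.4% of the counts in the NCD libraries and 9.75 to 21.9% in the HFD_lard libraries. Markers of the labelled tissue were present throughout. Omp, the marker of mature olfactory neurons, stood at 6088.7 to 6866.9 CPM (counts scaled to a common library total) in the NCD libraries and at 5185.6 to 6567.9 CPM in the HFD_lard libraries. All CPM values here were scaled by TMM factors over the 21 inputs, are not corrected for gene length, and serve to compare libraries and not genes.

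Compared with NCD odour, the odour of HFD_lard went with more RNA of genes for secreted proteins and antibodies and less RNA of 2 heat shock genes. By edgeR's quasi-likelihood test at an adjusted p under 0.05, 67 of 19532 genes (0.343%) were higher under HFD_lard odour and 13 (0.0666%) were lower, 80 in all (0.410%). At an unadjusted p under 0.05 there were 1616 genes (8.27%). In 77 of the 80 genes the lowest library of one odour lay above the highest of the other, against 178 of all genes (0.911%) with HFD_lard above and 152 (0.778%) with HFD_lard below. The median log2 fold change over all genes was 0.00.

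**Figure D1:**
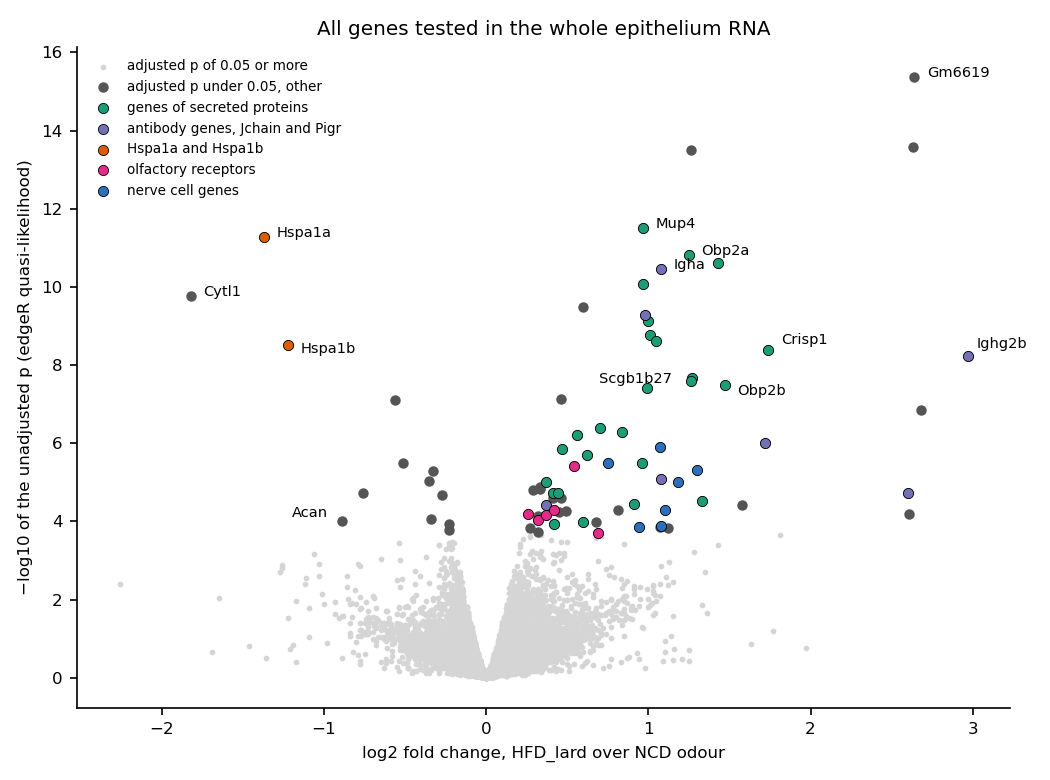
Each point is 1 of the 19532 genes, with the log2 fold change of HFD_lard over NCD odour on the x axis and the −log10 of the unadjusted p on the y axis. Dark and coloured points are the 80 genes past an adjusted p of 0.05, of which 67 lie to the right and 13 to the left.

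The groups of promoters shown next belong to genes that the results turn on, the heat shock pair that was lower and 2 odorant binding proteins that were higher. The sequences are RefSeq windows on GRCm38.p6, the 250 bases before the annotated start, written 5′ to 3′ on the strand of the gene. In the heat shock genes the capitals mark the core of a heat shock element, GAANNTTC, and in the Obp genes they mark a TATA box, TATAAA.
Hspa1a: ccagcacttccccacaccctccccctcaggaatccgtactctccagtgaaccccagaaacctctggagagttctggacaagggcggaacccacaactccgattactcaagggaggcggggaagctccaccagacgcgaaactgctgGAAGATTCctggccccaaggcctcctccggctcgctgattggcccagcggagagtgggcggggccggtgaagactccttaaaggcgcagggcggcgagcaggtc
Hspa1b: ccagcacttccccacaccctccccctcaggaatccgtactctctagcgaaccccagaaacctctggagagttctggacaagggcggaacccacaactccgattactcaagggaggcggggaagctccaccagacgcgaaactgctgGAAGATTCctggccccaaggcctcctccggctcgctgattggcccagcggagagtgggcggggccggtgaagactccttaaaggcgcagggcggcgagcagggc
Obp1a: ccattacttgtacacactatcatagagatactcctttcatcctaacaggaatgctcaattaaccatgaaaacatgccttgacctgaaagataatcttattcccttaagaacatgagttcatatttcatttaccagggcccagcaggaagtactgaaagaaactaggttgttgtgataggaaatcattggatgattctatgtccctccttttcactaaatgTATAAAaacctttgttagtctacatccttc
Obp2b: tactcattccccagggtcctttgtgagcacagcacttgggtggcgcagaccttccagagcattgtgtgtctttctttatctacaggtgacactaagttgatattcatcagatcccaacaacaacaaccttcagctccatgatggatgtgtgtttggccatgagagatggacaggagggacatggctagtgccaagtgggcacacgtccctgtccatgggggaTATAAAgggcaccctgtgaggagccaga

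These windows lie at chr17:34972157-34972406 for Hspa1a, chr17:34959239-34959488 for Hspa1b, chrX:78091375-78091624 for Obp1a and chr2:25736757-25737006 for Obp2b, the first 3 on the minus strand and the last on the plus strand. The windows of Hspa1a and Hspa1b were identical at 247 of 250 bases, and in both the heat shock element, GAANNTTC, spanned bases 104 to 97 before the start. Searched on both strands, that motif was present in 2199 of 32851 windows of the same length (6.69%). The other arrangement searched, TTCNNGAA, was present in 2354 windows (7.17%) and in neither heat shock gene. TATAAA was present in 4063 windows (12.4%), and in 20 of the 52 genes (38.5%) that were higher under HFD_lard odour and had a window. In Obp1a it spanned bases 30 to 25 and in Obp2b bases 28 to 23 before the start. In Mup4 it spanned bases 27 to 22, in Obp1b and Obp2a bases 61 to 56, and Lcn11 had 0. Of these windows, 31 bases lay inside the GENCODE gene in Obp1b and Obp2a, and 43 in Mup4. CCAAT was present in 11120 windows (33.8%) and in 15 of those 52 genes (28.8%). The shares of windows and of genes are unlike measures, since a gene counted if any of its windows matched. Near copies, such as Gm6619 and 5430401F13Rik, also counted separately among the genes with TATAAA, so the shares cannot show an excess. Among the 10 lower genes with a window, TATAAA was in 0, CCAAT in 6 and GAANNTTC in 2, which were Hspa1a and Hspa1b. A match describes the letters in a window and not a binding site.

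Genes of nasal and salivary type secretions made up a large group of the higher genes. Of 35 tested members of a list of Bowman's gland and nasal gland markers, 10 were higher (28.6%, against 0.343% of all genes) and 0 were lower. In the list, drawn up with earlier results of these data known, 26 had a log2 fold change above 0. In 9 members every HFD_lard library lay above every NCD library and in 1 below, against 0.911% and 0.778% of all genes. In the pulldown 15 members were higher and 3 lower, against 2.07% and 1.62% of all genes tested there. The median of the list was 0.18, against 0.00 over all genes. The 10 were Mup4, Obp2a, Obp2b, Obp1a, Obp1b, Lcn11, Bpifb9a, Bpifb9b, Bpifb5 and Klk1. In the list as a whole, summed levels reached 30010.7 to 36759.7 CPM in the HFD_lard libraries and 24941.6 to 27767.2 CPM in the NCD libraries, and 1 of its 38 members in the table had no count in the 11 inputs.

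Mup4, a major urinary protein, is a lipocalin that nasal and lacrimal glands also make. It stood at 879.5, 873.9, 975, 964.3 and 996.6 CPM in the 5 HFD_lard libraries and at 441.1, 473.5 and 530.5 CPM in the lowest, median and highest NCD library. Every HFD_lard library lay above every NCD library. The log2 fold change was 0.97 ± 0.06 (SE), 1.96-fold, with an adjusted p of 1.49e-08. Of the 31-base words in Mup4 transcripts, 38% occur in another gene, so that part of its estimate depends on how reads were shared among the Mup copies.

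Obp2a and Obp2b, odorant binding proteins in neighbouring genes of chromosome 2, also rose. Obp2a stood at 832.5, 882.4, 1057.3, 1138 and 1145.4 CPM in the HFD_lard libraries and at 368.8, 435.5 and 450.3 CPM in the lowest, median and highest NCD library. Its log2 fold change was 1.25 ± 0.08, with an adjusted p of 5.06e-08. Obp2b stood at 216.2, 168.1, 231.9, 257.1 and 288.9 CPM under HFD_lard odour and at 74.1 to 94.5 CPM (median 83.2) under NCD odour, with a log2 fold change of 1.47 ± 0.12 and an adjusted p of 3.00e-05. Both groups were fully separated for both genes. The third called gene of the same stretch was Lcn11, another lipocalin, at 83.8 to 116 CPM under HFD_lard odour and 47 to 54.6 CPM under NCD odour (log2 fold change 0.97 ± 0.07, adjusted p = 1.83e-07). These 3 genes lie within 80.2 kb, chr2:25700043-25780279, where 6 genes were tested.

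A second cluster of lipocalin genes, on the X chromosome, moved as a block. Within 381.2 kb, chrX:77864758-78245921, 6 of 7 tested genes were higher, namely Obp1a, Obp1b and the predicted genes Gm14743, Gm14744, 5430402E10Rik and Gm14750, the last an unprocessed pseudogene. The 4 predicted genes were chosen after their values were seen. Obp1a stood at 325.9, 274.8, 350.2, 436.3 and 466.5 CPM in the HFD_lard libraries and at 168.7, 189.6 and 214.6 CPM in the lowest, median and highest NCD library, with a log2 fold change of 0.96 ± 0.12 and an adjusted p of 0.00184. Obp1b stood at 1803.7 to 2600.7 CPM under HFD_lard odour and at 1047 to 1305.9 CPM under NCD odour (log2 fold change 1.00 ± 0.09, adjusted p = 1.10e-06). Gm14743 had a log2 fold change of 1.43 ± 0.09, but 84.9% of its 31-base words occur in Obp1b, and 75.4% of those of 5430402E10Rik occur in Gm14744, so the split of reads within the cluster is uncertain. For Obp1a the share of words found elsewhere was 15.8%.

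The BPI fold genes Bpifb9a, Bpifb9b and Bpifb5, whose products are released into nasal mucus, changed by less. Bpifb9b stood at 8471.8, 8942.8, 9087.2, 9664 and 9552.2 CPM in the HFD_lard libraries and at 6814.5, 7081 and 7267.1 CPM in the lowest, median and highest NCD library, a log2 fold change of 0.37 ± 0.06 (adjusted p = 0.0046). Bpifb9a had a log2 fold change of 0.41 ± 0.07 (adjusted p = 0.00751), and 80.5% of the words of Bpifb9b occur in Bpifb9a. In Bpifb5, with a log2 fold change of 0.42 ± 0.08 (adjusted p = 0.0326), the groups overlapped, at 165.9 to 241.6 against 141.3 to 174.3 CPM, and it failed in 8 of the 11 fits that left out a library. Muc5b, the gel-forming mucin of Bowman's glands, did not pass, at 1229 to 1643.1 CPM under HFD_lard odour and 973.8 to 1408.6 CPM under NCD odour (log2 fold change 0.24 ± 0.10, adjusted p = 0.514).

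Crisp1 and 2 secretoglobin genes were at low levels. Crisp1, a cysteine-rich secretory protein, stood at 3.96, 5.58, 5.22, 5.26 and 4.55 CPM in the HFD_lard libraries and at 0.852, 1.57 and 1.89 CPM in the lowest, median and highest NCD library (log2 fold change 1.74 ± 0.17, adjusted p = 4.72e-06). Scgb1b27, a secretoglobin of the androgen-binding protein family, stood at 4.29, 4.19, 4.65, 5.08 and 5.65 CPM against 1.55, 1.87 and 2.5 CPM (log2 fold change 1.26 ± 0.14, adjusted p = 2.47e-05). Its neighbour Scgb2b27, which encodes the partner subunit class, had a log2 fold change of 0.91 ± 0.17 (adjusted p = 0.0131). In all 3 genes the odour groups were separated, and without HFD_lard replicate 5 the gene Scgb2b27 did not pass (log2 fold change 0.86, adjusted p = 0.0617).

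Further enzymes and defence proteins of secretions were higher as well. Dnase1, a secreted nuclease, rose by a log2 fold change of 1.01 ± 0.09 (adjusted p = 2.36e-06), from 3.71 to 4.7 CPM in the NCD libraries to 7.69 to 9.77 CPM in the HFD_lard libraries. Car6, the carbonic anhydrase of saliva, had a log2 fold change of 0.84 ± 0.11 (adjusted p = 3.64e-04), and Chil1, a chitinase-like protein, of 0.70 ± 0.09 (adjusted p = 3.04e-04). Klk14 and Klk1, secreted proteases, had log2 fold changes of 0.62 ± 0.09 and 1.33 ± 0.24 (adjusted p = 0.00125 and 0.0109).

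Lcn2, which binds iron carriers of bacteria and stands in the list of neutrophil genes, had a log2 fold change of 0.47 ± 0.07 (adjusted p = 8.67e-04). It was the only member of that list called, 1 of 15, against 0.343% of all genes called higher. The summed level of that list was 132.4 to 195.6 CPM in the HFD_lard libraries and 128.3 to 150.8 CPM in the NCD libraries, and its part in the result was not tested. Pglyrp1, which binds bacterial cell walls, had a log2 fold change of 0.44 ± 0.08 (adjusted p = 0.00751).

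Further secreted and surface proteins among the higher genes were chosen after their values were seen. Wfdc18, a small secreted protease inhibitor-like protein, stood at 1352.1, 1117.6, 1448.8, 1618.2 and 1950.2 CPM in the HFD_lard libraries and at 877.8, 1005.3 and 1074.4 CPM in the lowest, median and highest NCD library (log2 fold change 0.60 ± 0.11, adjusted p = 0.0286), and it passed in 3 of the 11 fits that left out a library. Pnliprp1, a pancreatic lipase relative, stood at 0.598 to 1.47 CPM against 0.122 to 0.531 CPM (log2 fold change 1.58 ± 0.29, adjusted p = 0.0133), with mean counts of 32.6 and 11 per library. Muc1, a membrane mucin, had a log2 fold change of 0.32 ± 0.06 (adjusted p = 0.0219), Cd44, the hyaluronan receptor, of 0.33 ± 0.06 (0.00646) and Plet1, a surface protein of epithelial progenitors, of 0.41 ± 0.07 (0.00944). All 5 had separated groups. Without HFD_lard replicate 5, neither the gene Plet1 (0.38, adjusted p = 0.055) nor the gene Pnliprp1 (1.54, adjusted p = 0.0538) passed, and Muc1 failed in 6 of the 11 fits that left out a library.

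Bhlha15, a transcription factor of serous secretory cells also called Mist1, was higher under HFD_lard odour, at 38.7, 44.6, 43.1, 38.2 and 39.4 CPM against 28.7, 29.3 and 31.5 CPM in the lowest, median and highest NCD library (log2 fold change 0.46 ± 0.05, adjusted p = 6.15e-05). Cabs1, a calcium-binding protein, stood at 49.7 to 53.2 CPM against 31.8 to 36.3 CPM (log2 fold change 0.60 ± 0.05, adjusted p = 5.72e-07). Cabs1 lies in a stretch of 642.9 kb, chr5:87885029-88527891, in which 6 of 8 tested genes were higher, among them Odam (log2 fold change 0.56 ± 0.08), the antisense gene BC051076 (1.26 ± 0.06) and Jchain. Strand was not stated for the counting, so reads of BC051076 and of a gene on the other strand cannot be told apart.

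The largest fold changes with high counts were in a pair of overlapping predicted genes, chosen after their values were seen. Gm6619 stood at 287.8, 269.6, 322.2, 369.6 and 394.5 CPM in the HFD_lard libraries and at 51, 52.1 and 55.7 CPM in the lowest, median and highest NCD library (log2 fold change 2.64 ± 0.09, 6.22-fold, adjusted p = 8.32e-12). It lies at chr6:131486400-131491493 inside 5430401F13Rik (log2 fold change 2.63 ± 0.10), and 79.8% of the 31-base words of either occur in the other, so these count as a single signal. The 5 HFD_lard libraries were all at least 269.6 CPM and no NCD library exceeded 55.7 CPM.

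**Figure D2:**
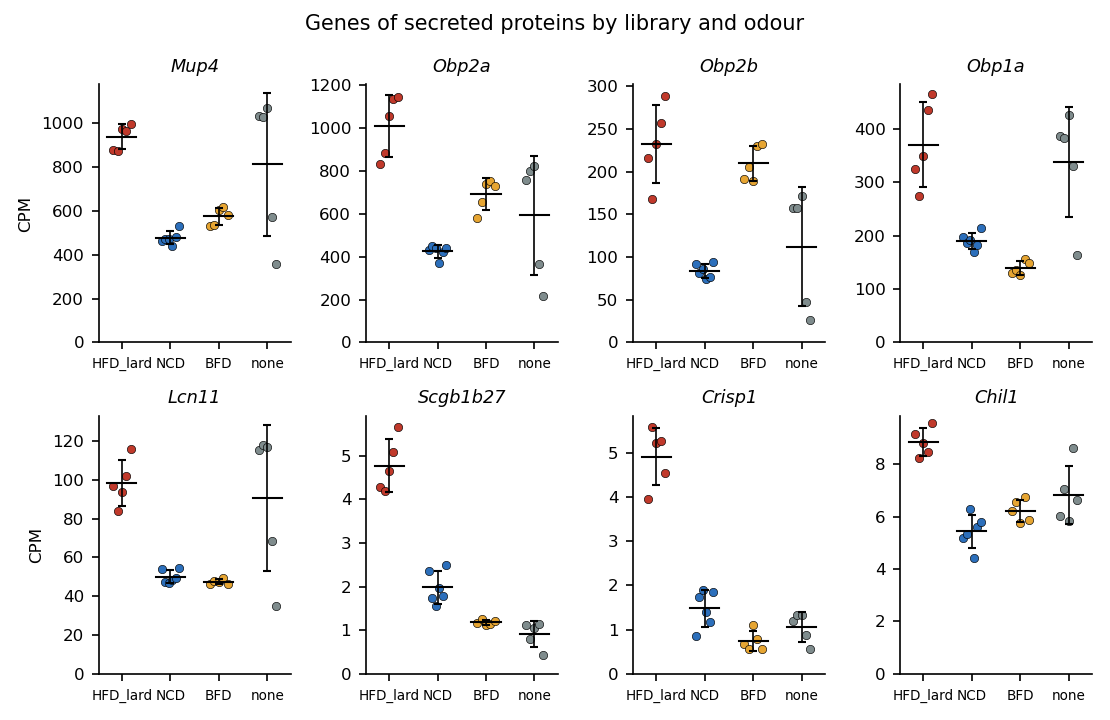
CPM (y axis, from 0) of 8 genes for secreted proteins by odour, 1 point per input library, with group means as lines and SDs as bars. All HFD_lard points lie above all NCD points in each panel, while the no-odour libraries spread widely, for Mup4 from 358.5 to 1068.5 CPM.

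The other odours place these levels. Of the 67 higher genes, 24 were called lower and 3 higher under NCD odour than without odour, in the fit over 21 inputs. Over all 20451 genes those counts were 2382 (11.6%) and 2417 (11.8%). Under HFD_lard odour, 38 of the 67 were called higher and 0 lower than without odour, against 2333 (11.4%) and 2103 (10.3%) of all genes. Ribosomal RNA took on average 28.1% of the counts in the no-odour inputs, against 15.8% under NCD and 15.6% under HFD_lard odour. Mitochondrially encoded genes took 1.3% there, against 1.01% and 0.921%. The part of these differences in the contrasts with no odour was not tested. Mup4 stood at 530.5 to 619.8 CPM in the 5 BFD libraries and at 358.5, 1031 and 1068.5 CPM in the lowest, median and highest library without odour, so that the NCD group lay below most no-odour libraries and the HFD_lard group within their range. In a fit over all 21 inputs, Mup4 differed between NCD odour and no odour (log2 fold change -0.77, adjusted p = 0.00788), and HFD_lard odour against no odour gave 0.21 (adjusted p = 0.491). Obp1a stood at 125.7 to 156 CPM under BFD odour and 164.4 to 426.5 CPM without odour, and HFD_lard exceeded BFD odour (log2 fold change 1.42, adjusted p = 3.86e-04).

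Of the 67 higher genes, 16 were also called higher under HFD_lard than under BFD odour, against 47 of 20451 genes (0.230%). Between BFD and NCD odour, 23 of the 67 were called higher and 5 lower under BFD odour. Over all genes those counts were 313 (1.53%) and 224 (1.10%). Among the 16 were Crisp1, Scgb1b27, Klk14 and Car6. HFD_lard over BFD gave log2 fold changes of 2.72 (adjusted p = 4.01e-08), 2.01 (5.10e-08), 1.87 (5.10e-08) and 2.48 (1.42e-06) for these 4 genes in the same fit. Their levels under HFD_lard odour also exceeded those without odour, by log2 fold changes of 2.22, 2.39, 0.87 and 1.65 (adjusted p = 5.04e-07, 5.16e-09, 7.17e-04 and 1.38e-04). Obp2b and Dnase1 gave 0.15 (adjusted p = 0.86) and 0.18 (adjusted p = 0.619) between HFD_lard and BFD odour. Comparisons of odours share libraries with each other, and 4436 of 20451 genes (21.7%) were called between HFD_lard odour and no odour, of which 2103 (10.3%) were lower under HFD_lard odour, and 100 (0.489%) were called between HFD_lard and BFD odour, of which 53 (0.259%) were lower under HFD_lard odour.

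With the spread estimated over all 21 inputs, including the uneven no-odour group, 4 of the 10 gland list members passed between HFD_lard and NCD odour, and 38 genes in all were higher (0.186%) and 13 lower (0.0636%). Among the genes named above, Lcn11, Obp2b, Klk1, Klk14, Car6, Cabs1, Odam, Gm14750, Bhlha15, Wfdc18, Muc1, Bpifb5, Bpifb9a and Bpifb9b no longer passed in that fit. Of called genes named below, Pigr, Cpt1a, Olfr727, Olfr329-ps, Olfr287, Nr4a3, Cplx1, Gad1, Hpca and Serpina3n did not pass in it either.

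Antibody genes formed the second group. Of 11 tested members of the list of B and plasma cell genes, 3 were higher, Igha, Igkc and Jchain, against 0.343% of all genes. None was lower, and the list median was 0.23. Igha, the constant part of the IgA heavy chain, stood at 18.9, 22.6, 25, 23.8 and 23.5 CPM in the HFD_lard libraries and at 10.1, 10.4 and 12.5 CPM in the lowest, median and highest NCD library. The groups were separated, with a log2 fold change of 1.08 ± 0.08 (2.12-fold, adjusted p = 8.59e-08). Igkc, the constant part of the kappa light chain, stood at 20.1, 22.6, 24.2, 25.5 and 28.5 CPM against 10.9, 12.5 and 13.2 CPM (log2 fold change 0.98 ± 0.08, adjusted p = 8.35e-07). Jchain, which links IgA units into dimers, stood at 2.32 to 3.35 CPM against 0.773 to 1.76 CPM (log2 fold change 1.08 ± 0.18, adjusted p = 0.00417).

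Ighg2b, the heavy chain constant part of an IgG class, had a fold change larger than Igha. It stood at 1.46, 1.21, 1.41, 1.71 and 2.05 CPM in the HFD_lard libraries and at 0.0531, 0.195 and 0.347 CPM in the lowest, median and highest NCD library, which corresponds to mean counts of 48.8 and 6.17 per library. The log2 fold change was 2.97 ± 0.29 (7.83-fold, adjusted p = 6.53e-06). Of 9 tested genes annotated as immunoglobulin segments, a list drawn up after the calls were seen, 5 were higher, the other 2 being variable segments of the Igkv1 family, and all 9 had a log2 fold change above 0. Of all genes 0.343% were higher, but a list drawn up with the calls known cannot show an excess. The summed level of all 258 segments in the table was 60.8 to 78.5 CPM in the HFD_lard libraries and 34.7 to 38.8 CPM in the NCD libraries, and 69 of them had no count in the 11 inputs.

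Pigr, the receptor that carries IgA across the epithelium, stood at 33.8, 42.5, 31.8, 34.2 and 31.2 CPM against 25.7, 26.6 and 28.4 CPM in the lowest, median and highest NCD library (log2 fold change 0.37 ± 0.07, adjusted p = 0.0133). Replicate 2 was the highest HFD_lard library, and the remaining 4 were also above all NCD libraries. The summed level of the whole B and plasma cell list was 621.8 to 726.9 CPM under HFD_lard odour and 576.3 to 635.1 CPM under NCD odour, and 0 of its members were without a count.

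Igha stood at 19.9 to 24.9 CPM under BFD odour and 10.6 to 15.2 CPM without odour, and HFD_lard minus BFD odour gave a log2 fold change of 0.01 (adjusted p = 0.983). Ighg2b stood at 1.14 to 2.27 CPM under BFD odour and 0.0764 to 0.499 CPM without odour. The BFD and NCD odours differed in the 21-input fit for Igha (log2 fold change 1.08, adjusted p = 6.78e-08), Igkc (0.97, 1.48e-05), Ighg2b (2.93, 1.28e-05) and Jchain (1.24, 1.28e-04), where 313 of 20451 genes (1.53%) were higher under BFD odour.

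The lower genes were led by the inducible heat shock protein 70 pair. Hspa1a stood at 4.56, 4.04, 4.65, 5.05 and 5.41 CPM in the HFD_lard libraries and at 11.4, 12.1 and 13.8 CPM in the lowest, median and highest NCD library. Hspa1b stood at 2.43, 2.77, 2.63, 2.78 and 3.04 CPM against 5.7, 6 and 8.31 CPM. No libraries of the 2 odours overlapped for either gene. The log2 fold changes were -1.37 ± 0.09 (adjusted p = 2.07e-08) for Hspa1a and -1.22 ± 0.11 (adjusted p = 3.69e-06) for Hspa1b, so that NCD exceeded HFD_lard odour by 2.58-fold and 2.32-fold. The transcripts are near copies like their promoter windows, and 67.6% of the 31-base words of Hspa1b occur in Hspa1a, so their split is uncertain.

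Hspa1a was at 4.15 to 5.72 CPM under BFD odour and 3.59 to 5.78 CPM without odour, and NCD odour against no odour gave a log2 fold change of 1.30 (adjusted p = 1.91e-08). HFD_lard odour against no odour gave -0.07 for Hspa1a (adjusted p = 0.722) and 0.21 for Hspa1b (adjusted p = 0.222). Of the 17 tested heat shock genes 2 were lower, against 0.0666% of all genes, and 0 higher, and the list median was -0.05. Among those that did not pass, Dnajb1, a co-chaperone, had a log2 fold change of -0.28 ± 0.07 with separated groups (170.6 to 226.8 against 237.2 to 277.1 CPM, adjusted p = 0.16), Hsph1 of -0.22 ± 0.05 (adjusted p = 0.0951) and Hspa8, the constitutive form, of -0.11 ± 0.06 (adjusted p = 0.651). These 3 genes were chosen after their values were seen.

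**Figure D3:**
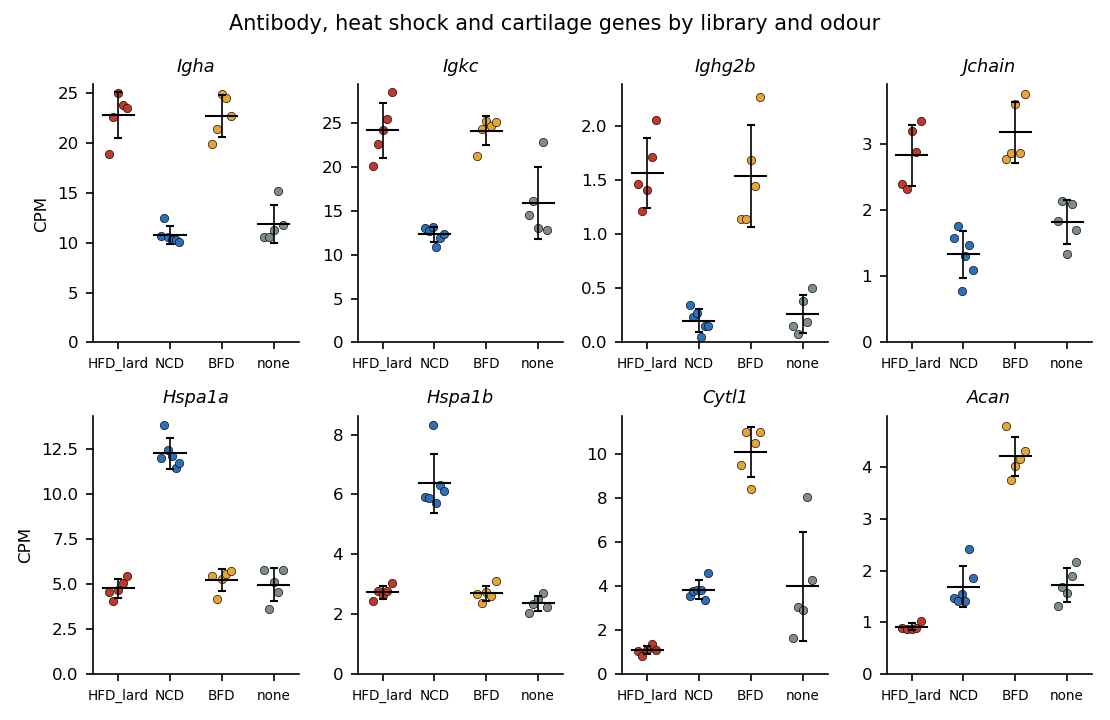
CPM (y axis, from 0) of 4 antibody genes, 2 heat shock genes and 2 cartilage genes by odour, 1 point per input library, with group means as lines and SDs as bars. The antibody genes are high under HFD_lard and BFD odour, Hspa1a and Hspa1b are high under NCD odour, and Cytl1 and Acan are highest under BFD and lowest under HFD_lard odour.

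Cytl1 and Acan, both known from cartilage, were lower as well. Cytl1, a small secreted protein, stood at 1.05, 0.814, 1.1, 1.35 and 1.09 CPM in the HFD_lard libraries and at 3.34, 3.81 and 4.6 CPM in the lowest, median and highest NCD library (log2 fold change -1.82 ± 0.14, adjusted p = 3.41e-07). Acan, the core protein of aggrecan, stood at 0.896, 0.874, 0.866, 0.887 and 1.03 CPM against 1.41, 1.51 and 2.42 CPM (log2 fold change -0.89 ± 0.18, adjusted p = 0.0285). Both genes were higher under BFD odour, at 8.39 to 11 CPM and 3.76 to 4.8 CPM, and HFD_lard minus BFD odour gave -3.22 (adjusted p = 5.50e-07) and -2.21 (adjusted p = 5.33e-09).

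Of 15 tested cartilage genes, a list drawn up after the calls were seen, these 2 were called lower (against 0.0666% of all genes), 9 had a log2 fold change above 0, and the median was 0.02. Their summed level was 117.6 to 135.2 CPM under HFD_lard odour and 120.3 to 130.1 CPM under NCD odour. The list of fibroblast and bone markers, of which Acan is a member, summed to 2360.5 to 2974 CPM against 2205.2 to 2379.1 CPM, with 16 of its 17 members not called and none without a count. This list's summed level was 1.13 times that under NCD odour and passed a two-sided exact permutation test (p = 0.00433, adjusted p = 0.026 over 18 lists). It did not pass without HFD_lard replicate 5 or 6 (adjusted p = 0.0571 in both) or without any NCD library. The part of this list in the results was not tested. Acan did not pass without NCD replicate 3, 5 or 6 or HFD_lard replicate 1, 3 or 5, with log2 fold changes between -0.95 and -0.76 over all alternatives.

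The remaining lower genes changed by less than 2-fold in the fit. Zbtb16, a transcription factor listed here among glucocorticoid-responsive genes, had a log2 fold change of -0.76 ± 0.13 (adjusted p = 0.00751). It was the only called member of 16, against 0.0666% of all genes called lower. Moxd2, a copper monooxygenase-like gene, had -0.56 ± 0.07 (adjusted p = 6.36e-05), Rasgrp4, a Ras activator of mast cells, -0.51 ± 0.08 (0.00184), Las1l, of ribosomal RNA processing, -0.35 ± 0.06 (0.00441) and Psmd2, a proteasome subunit, -0.27 ± 0.05 (0.00819). Neat1, a long non-coding RNA of nuclear paraspeckles, had -0.34 ± 0.07 (adjusted p = 0.0262) and Gadl1, an amino acid decarboxylase, -0.23 ± 0.05 (adjusted p = 0.0313), and they failed in 7 and 8 of the 11 fits that left out a library. In each of these genes the highest HFD_lard library lay below the lowest NCD library.

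Genes of fat and odorant metabolism are given next, beside 0.0666% of all genes called lower. Aldh1a1, which oxidizes retinal and other aldehydes, stood at 350.8, 346.3, 371.8, 368.7 and 377.1 CPM in the HFD_lard libraries and at 434.4, 455.2 and 477.6 CPM in the lowest, median and highest NCD library (log2 fold change -0.33 ± 0.05, adjusted p = 0.00263). It was the only called member of 22 tested aldehyde and odorant-metabolizing enzymes, whose median was -0.10. Cpt1a, which admits fatty acids to mitochondria for oxidation, stood at 46.1, 51.2, 46.3, 47.4 and 47.4 CPM against 52.1, 56 and 57.5 CPM (log2 fold change -0.23 ± 0.05, adjusted p = 0.0418), and it passed in 2 of the 11 fits that left out a library.

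Cpt1a was the only called gene of 18 in the list of fatty acid oxidation genes and PPAR targets (median -0.10). None of 17 genes of fatty acid sensing and lipid uptake passed, among them Cd36, the fatty acid receptor, at 80.1 to 94.5 against 83.9 to 98.1 CPM (log2 fold change -0.04 ± 0.06, adjusted p = 0.9). Of 25 tested genes of cholesterol and fatty acid synthesis 0 passed, 0 had a log2 fold change above 0, and the median was -0.08. The smallest p of that list was that of Hmgcs1, an early enzyme of cholesterol synthesis (log2 fold change -0.22 ± 0.06, adjusted p = 0.137). Genes of a list share libraries and scaling and are not independent of each other.

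The odorant receptors came next. Of 1170 receptor genes, 841 were tested, of which 6 were higher (0.713%, against 0.343% of all genes) and 0 lower, with a median log2 fold change of 0.03. The groups were separated with HFD_lard above in 10 of these 841 and below in 2, against 178 (0.911%) and 152 (0.778%) of all 19532 genes. Receptors took 0.272% ± 0.0246 (SD, n = 5) of the counts under HFD_lard odour and 0.262% ± 0.0118 (SD, n = 6) under NCD odour, a difference that did not pass a two-sided exact permutation test (p = 0.392, adjusted 0.588 over 3 shares).

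The called receptors were Olfr263, Olfr398, Olfr727, Olfr329-ps, Olfr287 and Olfr1204. Olfr263 stood at 9.3, 10.2, 8.66, 9.94 and 7.7 CPM in the HFD_lard libraries and at 5.95, 6.28 and 6.69 CPM in the lowest, median and highest NCD library (log2 fold change 0.54 ± 0.08, adjusted p = 0.00212). Olfr398 stood at 9.19, 8.93, 8.14, 8.93 and 9.41 CPM against 6.06, 6.58 and 7.36 CPM (log2 fold change 0.42 ± 0.08, adjusted p = 0.0173). The groups did not overlap for either gene. Of the 31-base words of Olfr263, 18.7% occur in Olfr1369-ps1, a similar copy.

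When a library was left out, 6 receptors passed without HFD_lard replicate 1 or 2, 4 without HFD_lard replicate 3, 3 without HFD_lard replicate 6 or NCD replicate 1, 2 or 3, and 2 without HFD_lard replicate 5 or NCD replicate 4, 5 or 6. At an adjusted p under 0.001 there were 0. In the pulldown of the same pools, Olfr263 had a log2 fold change of 0.42 ± 0.06 (adjusted p = 7.92e-05), Olfr398 of 0.29 ± 0.07 (0.0182), Olfr727 of 0.48 ± 0.05 (8.55e-06) and Olfr1204 of 0.16 ± 0.12 (0.558).

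Markers of the neurons and supporting cells did not pass. Omp had a log2 fold change of -0.15 ± 0.07 (adjusted p = 0.579), Cnga2, the odour-gated channel, of 0.00 ± 0.05 (0.998), Gap43 of immature neurons -0.11 ± 0.05 (0.591), Krt5 of horizontal basal cells 0.00 ± 0.07 (1) and Cyp2g1 of supporting cells -0.09 ± 0.06 (0.791). Of 12 mature neuron, 18 immature neuron, 17 progenitor, 12 horizontal basal cell and 24 supporting cell genes tested, 0 were called. None of the 15 genes of the transduction cascade was called either. A missed threshold does not show that levels were alike.

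The ranges of the summed levels of these lists overlapped between the odours. Mature neuron markers summed to 16146.5 to 19079.4 CPM under HFD_lard odour and 17402.2 to 19018.4 CPM under NCD odour, and supporting cell markers to 16836.4 to 19543 against 18517.3 to 20102.2 CPM. Motile cilia markers, a sign of respiratory epithelium, summed to 1940.5 to 2118.4 against 2099 to 2198.5 CPM, with 0 of 20 genes called and none without a count. Their summed level was 0.942 times that under NCD odour and passed a two-sided exact permutation test (p = 0.00433, adjusted p = 0.026 over 18 lists). It did not pass without HFD_lard replicate 5 (adjusted p = 0.0571) or without any NCD library (adjusted p = 0.0714 to 0.0952). The gland list, with fully separated groups, had the same adjusted p-values at its smallest and largest in these fits. With fewer arrangements they cannot show whether a difference holds. The part of the cilia-bearing tissue in the results was not tested.

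**Figure D4:**
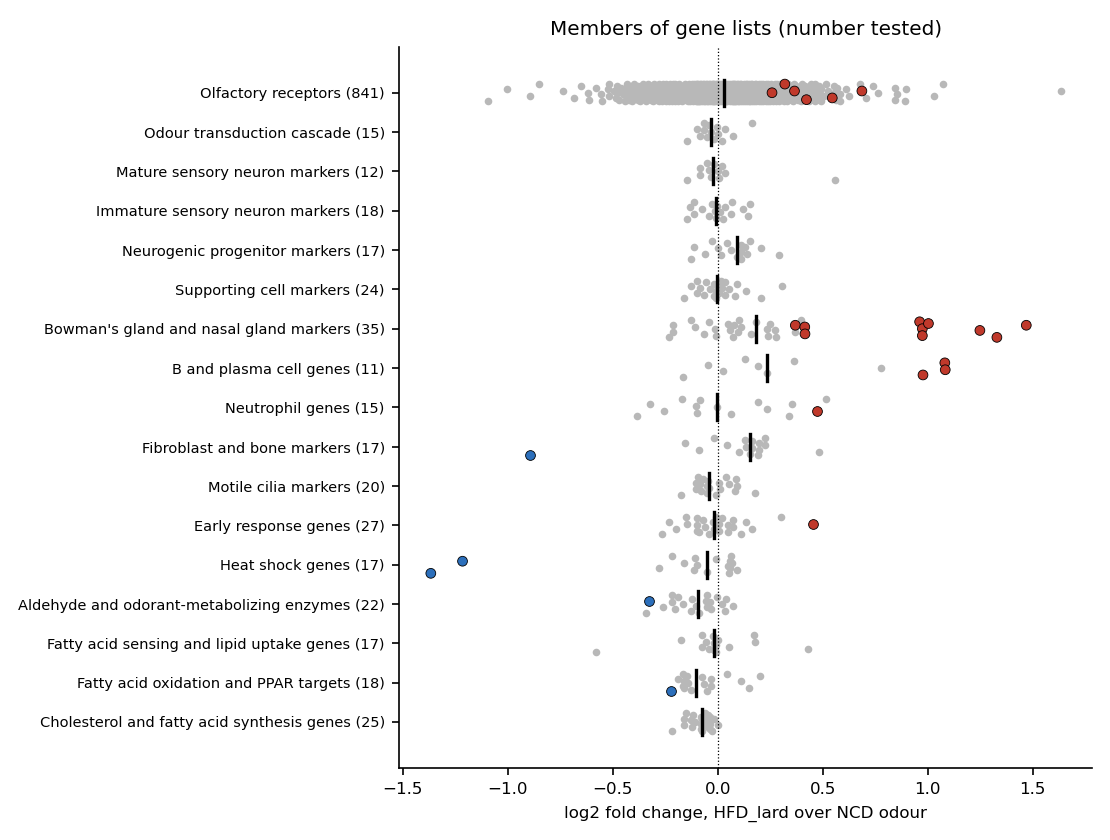
Log2 fold changes of HFD_lard over NCD odour (x axis) for the tested members of 17 gene lists, with the number tested in brackets, grey points for members that did not pass, red for higher and blue for lower genes at an adjusted p under 0.05, and black bars for list medians. The gland list has 10 red points and a median of 0.18, and the receptors have 6 red points among 841.

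Activity-dependent genes gave 1 call. Nr4a3, an early response transcription factor, stood at 9, 9.02, 9.09, 8.11 and 8.79 CPM in the HFD_lard libraries and at 5.46, 6.17 and 7.49 CPM in the lowest, median and highest NCD library (log2 fold change 0.45 ± 0.09, adjusted p = 0.019). It was the only one called of 27 tested early response genes, against 0.343% of all genes called higher, and the list median was -0.02. Fos stood at 5.8 to 8.07 against 7.41 to 8.32 CPM (log2 fold change -0.10 ± 0.09, adjusted p = 0.827) and at 2.1 to 3.11 CPM without odour.

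Nr4a3 did not pass without NCD replicate 1, 2, 4 or 6 or HFD_lard replicate 1 or 3, and its pulldown value was 0.22 ± 0.07 (adjusted p = 0.0814). Of 14 activity-dependent sensory neuron genes and 13 inhibitors of MAP kinase signalling, 0 passed.

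Some genes of the olfactory bulb and brain were higher. Of 28 tested olfactory bulb and brain genes, a list drawn up after the calls were seen, 7 were higher, among them Cplx1, Cck, Slc6a11, Gad1 and Hpca, and 0 lower. The list median was 0.16, against 0.00 over all genes. Of all genes 0.343% were higher, but a list drawn up with the calls known cannot show an excess. Cplx1, a protein of synaptic vesicle release, stood at 2.73, 2.17, 2.05, 2.6 and 1.74 CPM in the HFD_lard libraries and at 1.01, 1.06 and 1.24 CPM in the lowest, median and highest NCD library (log2 fold change 1.07 ± 0.15, adjusted p = 8.24e-04). Cck, a neuropeptide, had a log2 fold change of 1.30 ± 0.20 (adjusted p = 0.0025), Slc6a11, a GABA transporter, of 1.18 ± 0.20 (0.00461) and Gad1, which makes GABA, of 1.08 ± 0.22 (0.0348).

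All 7 genes were at low levels, and the groups overlapped for Gad1. Without odour the levels of Gad1 ran from 0.299 to 3.9 CPM and those of Cplx1 from 0.608 to 4.57 CPM, wider than in either odour group. The summed level of the bulb and brain list was 2402.4 to 3323.8 CPM under HFD_lard odour and 2469.5 to 2900.2 CPM under NCD odour, with 0 members without a count, and the part of attached brain tissue in these values was not tested. Gad1 passed in 2 of 11 and Hpca in 1 of 11 fits without a library.

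The pulldown libraries of the same pools gave a second measure from the same tissue, not an independent one. In them 702 of 19001 genes were called (3.69%), 394 higher (2.07%) and 308 lower (1.62%) under HFD_lard odour. Of the 67 higher genes of the input 57 were also higher in the pulldown (85.1% of these and 14.5% of the pulldown genes), with a median log2 fold change of 0.77, and of the 13 lower genes 5 were lower (38.5% and 1.62%), with a median of -0.37. Mup4 had a pulldown log2 fold change of 1.03 ± 0.05, Crisp1 of 2.09 ± 0.10 and Hspa1a of -1.49 ± 0.11, all past the threshold. Igha had 0.52 ± 0.06 in the pulldown and 1.08 ± 0.08 in the input. Cytl1 (-0.83 ± 0.25, adjusted p = 0.0657) and Acan (-0.37 ± 0.27, adjusted p = 0.538) did not pass in the pulldown.

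**Figure D5:**
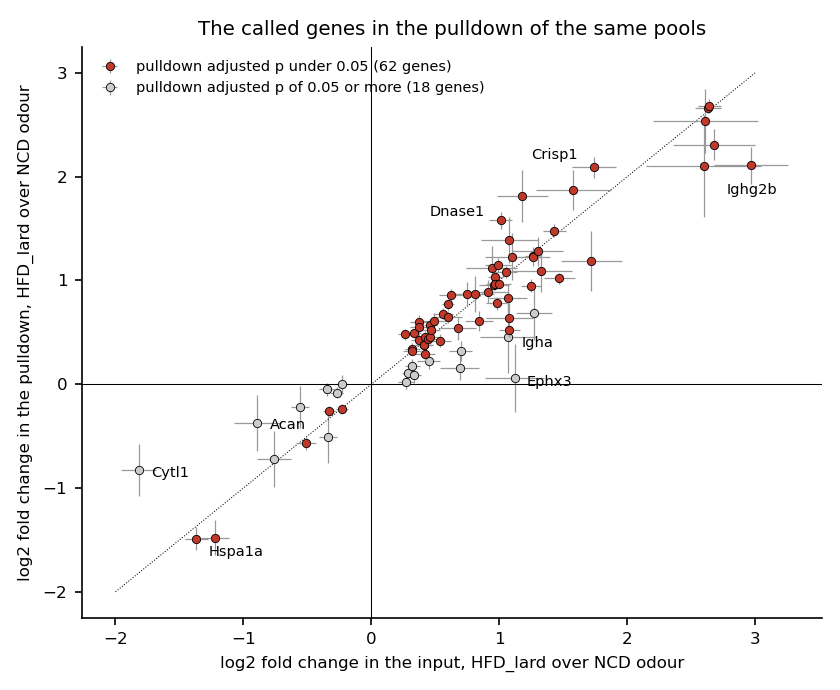
Log2 fold changes of HFD_lard over NCD odour for the 80 called genes in the input (x axis) and in the pulldown of the same pools (y axis), with standard errors as bars and equality as the dotted line. Red points passed an adjusted p of 0.05 in the pulldown too, and they include 57 of the 67 higher and 5 of the 13 lower genes.

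By position, 33 of the 79 called genes with coordinates lay within 1 Mb of another called gene, in 11 stretches. Apart from the lipocalin, Bpifb and antibody stretches these included Hspa1a and Hspa1b (chr17:34956436-34972156, both lower) and Scgb2b27 and Scgb1b27 (chr7:34011921-34022881, both higher). In 10 of these 11 stretches all called genes were higher. Coordinates are those of GENCODE M21 on GRCm38.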

How the data were processed

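RNA of 4 pooled epithelia per sample was amplified and sequenced. The authors used Salmon with GRCm38, within nf-core rnaseq, and deposited expected counts per gene, not normalized. These estimated counts divide reads among similar genes, and 30.9% of the deposited values were not whole. The annotation release is not given in the sources used here. GENCODE M21 names 44118 of the 44674 genes, and the other 556 carry 0.525% of the counts. Olfr151 is not analysed here.

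The 11 inputs were rounded to whole counts and filtered with edgeR's filterByExpr (minimum count 10). TMM scaling and edgeR's robust quasi-likelihood fit gave log2 fold changes, standard errors and two-sided p-values, adjusted over all genes by Benjamini-Hochberg (edgeR 4.0.16, limma 3.58.1, DESeq2 1.42.0, R 4.3.3). The fit was tested on simulated data. The common biological coefficient of variation was 10.2%. Contrasts with BFD or no odour came from a fit on 21 inputs (20451 genes), and the pulldown was fitted alone. Shares and list sums were compared by exact permutation over 462 arrangements. Groups came from the labels, which give no library batch, so p-values cover only the spread between these pools. No pair of libraries of an odour was alike within sampling noise (chi-square per degree of freedom at least 4.69 over 25 pairs).

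Members and lists were chosen with earlier results of these data known. Genes were named as the 15 with the smallest p in each direction (predicted genes, pseudogenes and ribosomal RNA left out), up to 2 called per list and direction or else the one with the smallest p, and 7 markers. Some genes the rule names are not reported here. Called genes outside this rule, and Fos, Cd36, Dnajb1, Hsph1 and Hspa8, were chosen after their values were seen. Promoter sequences are from RefSeq, and 31-base words were counted in GENCODE transcripts. Alternatives were DESeq2, its size factors, limma voom, other filters, 21 inputs in 1 fit, a replicate term, ribosomal RNA left out or as covariate, a stricter threshold and leaving out each library.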

Additional observations from a re-analysis of the deposited data

Results flagged for a closer look

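Values were checked for a library that stood far from the rest of its odour group, with Dixon's gap at the 95% level, in 278 groups of 5 or 6 inputs, and 19 were marked. Chance marks about 1 in 20 groups. The values are in CPM.

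Among the genes of secretions and antibodies, Obp2a was at 368.8 in NCD replicate 4 (others 420.7 to 450.3), Klk1 at 1.01 in NCD replicate 6 (0.368 to 0.575), Klk14 at 9.33 in HFD_lard replicate 5 (8.48 to 8.68), Igha at 12.5 in NCD replicate 2 (10.1 to 10.7) and Pigr at 42.5 in HFD_lard replicate 2 (31.2 to 34.2). Serpina3n, an acute phase protease inhibitor, was at 175.3 in HFD_lard replicate 1 (219 to 228.5) and at 196.7 in NCD replicate 2 (159.5 to 172.2).

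Among the lower genes, Hspa1b was at 8.31 in NCD replicate 3 (5.7 to 6.32), Las1l at 23.5 in HFD_lard replicate 6 (26.3 to 27.3), Acan at 1.03 in HFD_lard replicate 6 (0.866 to 0.896) and Gadl1 at 134.2 in HFD_lard replicate 6 (126.2 to 128.4). Cpt1a was at 51.2 in HFD_lard replicate 2 (46.1 to 47.4) and at 52.1 in NCD replicate 3 (55.9 to 57.5). In Obp2a, Klk1, Klk14, Igha, Pigr, Hspa1b, Las1l, Acan, Gadl1 and Cpt1a the odour groups stayed separated with these libraries included. In Serpina3n they overlapped.

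Of the olfactory bulb and brain genes, Cplx1 was at 1.24 (others 1.01 to 1.08) and Gad1 at 1.08 (0.552 to 0.725), both in NCD replicate 3, and Hpca was at 0.814 in HFD_lard replicate 2 (1.3 to 1.46). The odour groups stayed separated in Cplx1 and overlapped in Gad1. Of genes that were not called, Taar4, an amine receptor, was at 0.579 (0.913 to 1.07) and Gsto1, a supporting cell enzyme, at 21.1 (16.5 to 17.6), both in NCD replicate 6, and mt-Rnr2, mitochondrial ribosomal RNA, was at 37935.9 in HFD_lard replicate 1 (54061.7 to 57409.1).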

How the results depend on the processing

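All 80 called genes kept their direction under every alternative run. Of these, 53 passed in all 11 fits without a library, 37 in every alternative at an adjusted p of 0.05, and 31 at 0.001. The higher and lower genes numbered 105 and 51 with DESeq2, 113 and 39 with a replicate block, 127 and 71 with the ribosomal RNA share as covariate, 38 higher with all 21 inputs, and 27 and 4 at an adjusted p of 0.001. Without a library they were 47 to 89 and 9 to 24, the last without HFD_lard replicate 2. Receptors called numbered 3 with 21 inputs, 11 with the covariate, 0 at 0.001 and 2 to 6 without a library. Gland list members called were 4 with 21 inputs and 5 at 0.001. Heat shock genes called were 5 with DESeq2, 4 with the replicate block and 4 with the covariate. Lists with a called member, 10 of 43, became 18 with the replicate block, 17 with the covariate and 4 at 0.001. Deviations of same-numbered pools correlated at 0.189, 0.164 and 0.148 for numbers 1, 2 and 6 and at 0.007 and -0.064 for numbers 3 and 5, against a median of -0.013 for other pairs, and 2 of 5 correlated best with their own number. Since not every pair correlated and no label ties the numbers to a shared day or batch, the block was kept as an alternative, and whether the numbers pair the pools is not settled.

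The mitochondrially encoded share differed by -0.0864 percentage points (exact permutation p = 0.0801), by -0.106 (p = 0.0108) with counts other than ribosomal RNA as denominator, and by -0.111 to -0.0531 without a library. Summed levels of 3 marker lists (gland higher, fibroblast and bone higher, motile cilia lower under HFD_lard odour) passed the exact permutation test, and 0 to 4 without a library, with 0 lists without HFD_lard replicate 5 or any NCD library. In the fits with 0 lists even the fully separated gland list missed the threshold, so they cannot show whether a difference holds. The pulldown gave 702 genes, and 113 at 0.001. HFD_lard against BFD odour gave 100 and 17, and BFD against NCD odour 537, 22, and 344 with no filter beyond 1 count. The cause of these shifts was not tested. Genes with few counts, such as Ighg2b (mean counts 48.8 and 6.17), are limited by depth.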
